A study of Mus musculus with 12 samples.

Results

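Osteoclasts are the multinucleated cells that resorb bone, and 10 genes known for them were followed in RNA of sorted bone marrow cells from mice with cardiovascular disease. The genes were Ctsk and Acp5 (enzymes of resorption), Atp6v0d2 (proton pump), Dcstamp and Ocstamp (cell fusion), Tnfrsf11a, Oscar and Calcr (receptors), Nfatc1 (transcription factor) and Spp1 (secreted matrix protein). They were chosen by name, with earlier results of these same libraries known, among them that a control library may stand apart. Their levels and fold changes are therefore a description and carry no p value. Each symbol matched a single Ensembl identifier among the 55421 genes of the count table, and 6 of the 10 genes passed the filter on low counts and were among the 15999 genes tested. Dcstamp, Ocstamp, Oscar and Calcr had too few counts and are given as counts.

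Osteoclasts form when monocyte and macrophage precursors receive CSF1 and then RANKL, the ligand of the receptor encoded by Tnfrsf11a. The receptor signals through TRAF6 and NF-kappaB to the transcription factor NFATc1, with a second signal from immunoreceptor adaptors such as that encoded by Tyrobp, and NFATc1 together with AP-1, PU.1 and MITF switches on the genes of fusion, acid secretion and matrix digestion. Several of the genes are also used by other marrow cells: macrophages make the acid phosphatase encoded by Acp5, osteoblasts and macrophages secrete osteopontin, the product of Spp1, and Nfatc1 is active in lymphocytes and endothelium.

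Each of 12 mice gave 1 library of polyadenylated RNA, and all were 20 weeks old. The 3 naive controls, the 3 mice made hypertensive by chronic angiotensin II and the 3 mice taken 2 days after acute myocardial infarction (MI) were C57BL/6J. The 3 mice with atherosclerosis were Apoe knockout animals of the strain Apoe(tm1Unc) on a western diet. The day of the MI group is that of the labels, and other text of the study places it later. The same controls served in every comparison, and the atherosclerosis group differed from them in genotype and diet together, which cannot be told apart. The mice are numbered 2, 3 and 4 in each group, and a library is named here by its group and number, as control 4.

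Total counts were 17007088 to 25136936 per library. Apoe, the deleted gene, was at 7.27 to 14.8 CPM (counts per 1000000 counts of the library) in the atherosclerosis libraries and at 450.0 to 1501 CPM in the 9 others. The cells were depleted of lineage-positive cells, CD11b among the antibodies, and sorted as TER-119-, CD41-, CD45-, CD31-high and SCA-1+, a gate for endothelium that should leave out osteoclasts and their CD45+ precursors. The 14 endothelial markers summed to 144.0 to 270.2 CPM, against 33430 to 96570 CPM for 12 neutrophil markers, 7991 to 25380 CPM for 12 erythroid markers, 1317 to 2688 CPM for 8 monocyte markers and 679.6 to 1204 CPM for 14 macrophage markers. The label of endothelial cells thus stood beside low levels of Cdh5 (1.99 to 4.18 CPM), the endothelial cadherin. In log2 CPM over all genes tested, atherosclerosis 2 and MI 2 were least like the other libraries, with a mean Pearson's r of 0.957 and 0.964.

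The DNA just before the start site is shown for Ctsk and Spp1, whose levels went together across the libraries, and for Acp5, which did not follow them. The sequences are the 250 bases before a RefSeq start of each gene in GRCm38.p6, read on the gene's strand, and capitals mark letters of the PU.1 core or the NFAT core. The Ctsk window is chr3:95498960-95499209 on the plus strand, the Spp1 window is chr5:104434861-104435110 on the plus strand, and the Acp5 window is chr9:22135747-22135996 on the minus strand.
Ctsk: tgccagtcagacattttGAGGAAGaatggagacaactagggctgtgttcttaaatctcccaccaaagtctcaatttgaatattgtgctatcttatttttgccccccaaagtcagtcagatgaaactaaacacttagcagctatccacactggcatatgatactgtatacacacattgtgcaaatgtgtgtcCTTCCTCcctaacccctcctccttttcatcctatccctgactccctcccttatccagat
Spp1: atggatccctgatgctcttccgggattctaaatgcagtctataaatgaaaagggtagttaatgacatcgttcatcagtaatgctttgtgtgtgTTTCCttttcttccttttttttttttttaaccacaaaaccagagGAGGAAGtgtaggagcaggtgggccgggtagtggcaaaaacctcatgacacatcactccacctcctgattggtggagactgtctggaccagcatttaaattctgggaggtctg
Acp5: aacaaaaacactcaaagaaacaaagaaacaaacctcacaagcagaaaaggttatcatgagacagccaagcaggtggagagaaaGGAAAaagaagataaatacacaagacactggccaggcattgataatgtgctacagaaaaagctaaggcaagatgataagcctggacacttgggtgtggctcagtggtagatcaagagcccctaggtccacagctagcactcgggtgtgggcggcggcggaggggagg

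The letters searched on both strands were GAGGAAG for the PU.1 core, GGAAA for the NFAT core, TGANTCA for AP-1 and TCANGTG for the M-box bound by MITF. The Ctsk window held the PU.1 core at positions -233 and -59, counted back from the start, and none of the other 3. The Spp1 window held the NFAT core at -157 and the PU.1 core at -113, and the Acp5 window held the NFAT core at -167 alone. RefSeq gives other starts for both genes: the other Spp1 window held the NFAT core at -202, and of the other 2 Acp5 windows 1 held the NFAT core at -41 and 1 held it at -117 and -37 with the M-box at -90. No match overlapped that of another motif in the 3 windows printed. Of 32536 promoters of the same length in the RefSeq table, 10.7% held the PU.1 core, 55.7% the NFAT core, 6.73% AP-1 and 12.2% the M-box, so the NFAT core is common. The RefSeq table held 10 windows for 6 of the genes, Tnfrsf11a, Ctsk, Spp1, Calcr, Oscar and Acp5, and the AP-1 letters were in none of the 10. No window is given for Atp6v0d2, Dcstamp, Ocstamp and Nfatc1.

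Per kilobase of exon, the genes spanned a wide range of levels. Acp5 was the most abundant, with a median of 80.1 CPM per kb over the 12 libraries, followed by Spp1 with a range of 8.46 to 65.7 CPM per kb and then, by their medians, Nfatc1 at 8.92, Atp6v0d2 at 2.33, Ctsk at 2.08 and Tnfrsf11a at 0.583 CPM per kb. Oscar (0.108), Dcstamp (0.0906), Ocstamp (0.0585) and Calcr (0, all CPM per kb) came last. The 12-library ranges of neighbours did not overlap between Nfatc1 and Atp6v0d2, between Ctsk and Tnfrsf11a and between Tnfrsf11a and Oscar, and they overlapped for every other pair of neighbours. Acp5 alone took 55.2% of all counts on the 10 genes, Nfatc1 23.3% and Spp1 15.5%. The markers that are most particular to mature osteoclasts, Calcr and the fusion genes, were thus at or near the limit of what was counted, and the sum over the list mostly reports Acp5. That sum was 262.1, 275.5 and 364.1 CPM in controls 2, 3 and 4, 324.9 to 339.3 CPM in hypertension, 263.9 to 296.2 CPM in atherosclerosis and 243.5 to 302.7 CPM after MI.

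**Figure D1:**
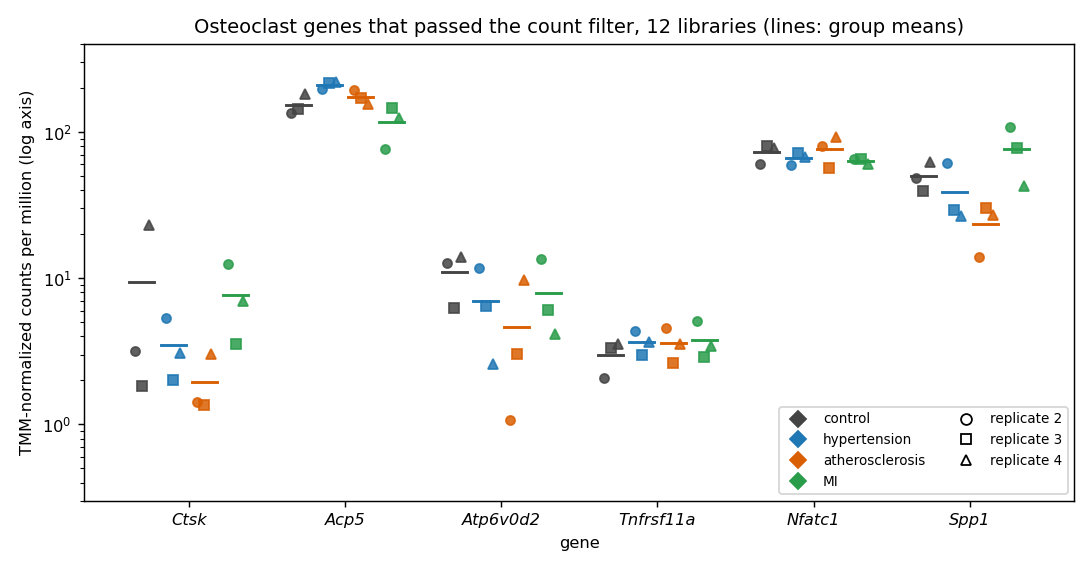
Levels of the 6 osteoclast genes that passed the count filter, in TMM-normalized CPM on a log axis, with a point for each library, colours for groups, symbols for replicate numbers and lines for group means (n = 3). Ctsk spreads from 1.35 to 23.05 CPM with control 4 on top, and Nfatc1 stays between 57.1 and 91.8 CPM.

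Ctsk encodes cathepsin K, the cysteine protease with which osteoclasts cut collagen in bone (ENSMUSG00000028111, chr3:95499256-95509362, plus strand, GRCm38). It was at 3.19, 1.84 and 23.05 CPM in controls 2, 3 and 4, that is 57, 34 and 595 counts. It was at 5.30, 2.01 and 3.10 CPM in hypertension, at 1.42, 1.35 and 3.05 CPM in atherosclerosis and at 12.6, 3.54 and 6.999 CPM after MI. Control 4 stood above all 11 other libraries and held 41.3% of the Ctsk counts of the whole series, while the other controls lay among the disease libraries, so that no group was separated from controls. The mean ± SD (n = 3) was 9.36 ± 11.9 CPM in controls, 3.47 ± 1.68 CPM in hypertension, 1.94 ± 0.963 CPM in atherosclerosis and 7.70 ± 4.56 CPM after MI. In bulk RNA, fewer cells of a type and less RNA per cell cannot be told apart.

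Every Ctsk fold change rested on control 4. The fitted log2 fold change against controls was -1.44 (SE 0.78, 95% interval -3.12 to 0.23) in hypertension, -2.28 (SE 0.81, -4.03 to -0.53) in atherosclerosis and -0.29 (SE 0.75, -1.92 to 1.33) after MI. Without control 4 these became 0.47, -0.36 and 1.62, so the sign turned in hypertension and MI and most of the difference in atherosclerosis was gone. Control 4 lay 3.22 on the log2 scale above the mean of the other controls, and only 2 of the 15999 genes tested lay farther above, the immunoglobulin segments Ighv5-2 (5.23) and Igkv8-28 (4.02). Next below Ctsk came Tmem255b (2.81) and Slc9b2 (2.80), a sodium/proton exchanger known from osteoclasts. The 10 genes farthest above were looked up after the values were seen.

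Acp5 encodes tartrate-resistant acid phosphatase, the classical stain for osteoclasts (ENSMUSG00000001348, chr9:22126727-22135711, minus strand). It was at 135.0, 144.1 and 181.9 CPM in controls 2, 3 and 4, at 195.9, 216.5 and 220.7 CPM in hypertension, at 193.9, 169.7 and 155.7 CPM in atherosclerosis and at 76.4, 146.8 and 125.2 CPM after MI. All 3 hypertension libraries were above all 3 controls, and the other groups overlapped with controls. The means were 153.7 ± 24.9 CPM in controls, 211.0 ± 13.3 CPM in hypertension, 173.1 ± 19.3 CPM in atherosclerosis and 116.1 ± 36.1 CPM after MI (SD, n = 3). The log2 fold change was 0.46 (SE 0.21, 95% interval -0.0024 to 0.92) in hypertension, 0.17 (SE 0.21) in atherosclerosis and -0.40 (SE 0.21) after MI. Leaving out each library in turn kept the hypertension value between 0.37 and 0.60. The gene shares 137 exon bases with a transcript on the opposite strand, 6530413G14Rik, and the strand setting of the counts is not stated.

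Atp6v0d2 encodes the d2 subunit of the vacuolar proton pump, which acidifies the resorption pit (ENSMUSG00000028238, chr4:19876841-19922605, minus strand). It was at 12.8, 6.22 and 13.9 CPM in controls 2, 3 and 4, at 11.8, 6.43 and 2.60 CPM in hypertension, at 1.07, 3.05 and 9.77 CPM in atherosclerosis and at 13.6, 6.03 and 4.17 CPM after MI. Each group spanned more than the gap between any of the group means, and all overlapped with controls. The means were 11.0 ± 4.16, 6.94 ± 4.62, 4.63 ± 4.56 and 7.92 ± 4.98 CPM in the same order (SD, n = 3). The log2 fold change was -0.66 (SE 0.68), -1.25 (SE 0.70) and -0.47 (SE 0.68), and in atherosclerosis it was -2.44 without atherosclerosis 4, whose 9.77 CPM lay within the controls.

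Dcstamp and Ocstamp encode membrane proteins that osteoclast precursors need to fuse. Ocstamp (ENSMUSG00000027670, chr2:165393760-165400405, minus strand) had 5, 4 and 14 counts in controls 2, 3 and 4, 9, 2 and 0 in hypertension, 0, 0 and 2 in atherosclerosis and 12, 4 and 6 after MI. All 3 atherosclerosis libraries were below all controls, a pattern of 4.46% of the genes that passed the count filter. Ocstamp is not among those genes and was chosen with these libraries known, so nothing is read from it. Over the group, atherosclerosis had 2 counts, 0.0341 unscaled CPM with an exact 95% Poisson interval of 0.00414 to 0.123, against 23 counts and 0.374 CPM (0.237 to 0.561) in controls, 11 counts in hypertension and 22 after MI. These intervals cover counting error only and not the spread between mice. Dcstamp (ENSMUSG00000022303, chr15:39745930-39760938, plus strand) had 1 to 13 counts in every library and group sums of 14 in controls, 10 in hypertension, 17 in atherosclerosis and 21 after MI, whose Poisson intervals all overlap. It was highest in atherosclerosis 2 (13 counts) and lowest in atherosclerosis 3 (1 count).

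The receptors were low. Tnfrsf11a, the gene of RANK (ENSMUSG00000026321, chr1:105780718-105847981, plus strand), was at 2.07, 3.35 and 3.56 CPM in controls 2, 3 and 4, at 4.35, 2.97 and 3.65 CPM in hypertension, at 4.57, 2.64 and 3.56 CPM in atherosclerosis and at 5.07, 2.91 and 3.41 CPM after MI. All groups overlapped with controls, and its log2 fold change was 0.28 (SE 0.31), 0.26 (SE 0.31) and 0.34 (SE 0.31) in hypertension, atherosclerosis and MI. Oscar, an activating receptor that binds collagen (ENSMUSG00000054594, chr7:3609813-3616157, minus strand), had 0 to 12 counts, with 12 in controls, 8 in hypertension, 20 in atherosclerosis and 12 after MI. Calcr, the calcitonin receptor by which mature osteoclasts are recognised (ENSMUSG00000023964, chr6:3685680-3764714, minus strand), had 5 counts in control 4, 2 in MI 2 and 0 in the other 10 libraries. A count of 0 over the 3 hypertension libraries allows up to 0.0469 CPM (3 counts), and over the 3 atherosclerosis libraries up to 0.0512 CPM. The upper ends of their exact 95% Poisson intervals, the measure given for controls, were 0.0576 and 0.0630 CPM. The control value of 0.0813 CPM (0.0264 to 0.190) rests on control 4 alone.

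**Figure D2:**
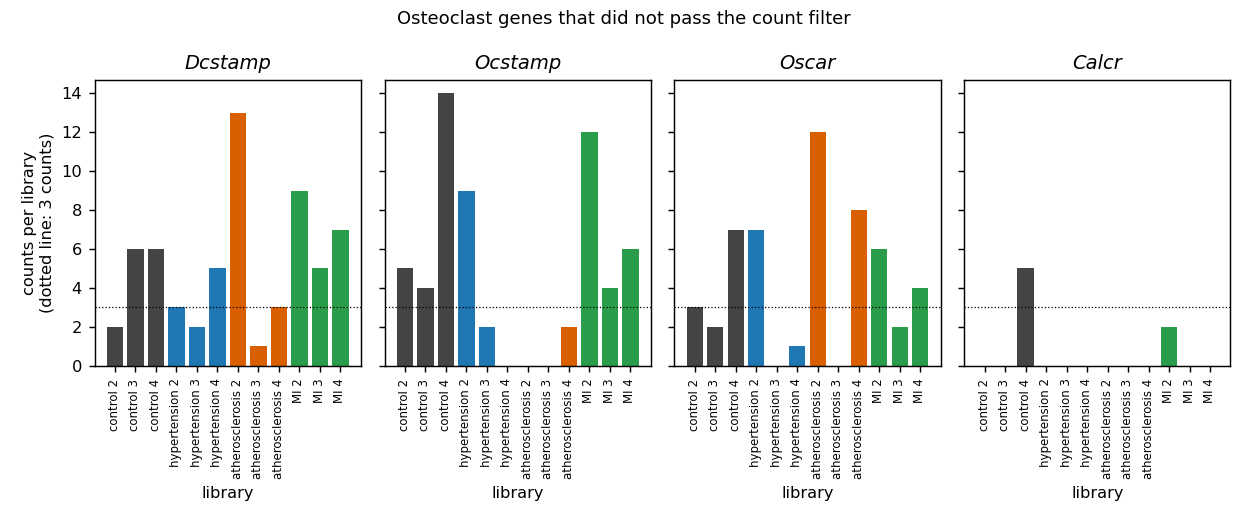
Raw counts per library of the 4 osteoclast genes that did not pass the count filter, with bars coloured by group and a dotted line at 3 counts. Ocstamp reaches 14 counts in control 4 and 12 in MI 2 with at most 2 in atherosclerosis, and Calcr has counts in control 4 and MI 2 only.

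Nfatc1, the transcription factor that directs osteoclast formation (ENSMUSG00000033016, chr18:80606205-80713071, minus strand), was even across the libraries. It was at 60.0, 79.6 and 78.0 CPM in controls 2, 3 and 4, at 59.7, 71.3 and 67.8 CPM in hypertension, at 80.2, 57.1 and 91.8 CPM in atherosclerosis and at 65.5, 65.5 and 60.0 CPM after MI. All groups overlapped with controls. The log2 fold change was -0.13 (SE 0.18, 95% interval -0.52 to 0.25) in hypertension, 0.07 (SE 0.18, -0.31 to 0.46) in atherosclerosis and -0.19 (SE 0.18, -0.57 to 0.20) after MI.

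Spp1 encodes osteopontin, a phosphoprotein by which osteoclasts attach to bone matrix (ENSMUSG00000029304, chr5:104435118-104441050, plus strand). It was at 48.4, 39.7 and 62.4 CPM in controls 2, 3 and 4, at 61.4, 29.3 and 26.7 CPM in hypertension, at 13.9, 30.0 and 26.9 CPM in atherosclerosis and at 108.3, 77.4 and 42.7 CPM after MI. All 3 atherosclerosis libraries lay below all 3 controls, and the MI libraries reached from within the controls to the highest value of the series. The means were 50.2 ± 11.4 CPM in controls, 39.2 ± 19.3 CPM in hypertension, 23.6 ± 8.52 CPM in atherosclerosis and 76.1 ± 32.8 CPM after MI (SD, n = 3). The log2 fold change was -0.36 (SE 0.38), -1.09 (SE 0.39, 95% interval -1.93 to -0.25) and 0.60 (SE 0.38) in hypertension, atherosclerosis and MI. In atherosclerosis it was between -1.30 and -0.81 when each library was left out in turn, and -1.10 to -0.62 over the other alternatives. Spp1 shares 309 exon bases with Gm42793, a transcript of the same strand, so reads there cannot be assigned.

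None of the 6 genes tested was called in any comparison by edgeR's quasi-likelihood test at an adjusted p under 0.05, and the likelihood-ratio test and DESeq2 called none of them either. Without the count filter, where 36003 genes were tested and 170, 432 and 130 genes called, Ctsk was called in hypertension, Ctsk, Atp6v0d2 and Spp1 in atherosclerosis and 0 of the 10 genes after MI. These calls are given as counts and nothing is read from them, since the genes were chosen with these libraries known and the fold change of Ctsk turned or shrank without control 4. Over all 15999 genes the test called 0% in hypertension, 0.144% in atherosclerosis (23 genes) and 0% after MI, with 594, 955 and 448 genes at an unadjusted p under 0.05. The likelihood-ratio test and DESeq2 each called 81 genes in atherosclerosis and 1 after MI.

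Of the 6 genes, Acp5 was the 1 whose hypertension libraries all lay above controls, a pattern seen in 9.02% of all genes tested, and none lay all below, against 7.81%. In atherosclerosis Spp1 was the 1 all below controls, against 4.46% of genes, and none lay all above, against 5.04%. After MI none lay all above or all below, against 4.26% and 4.59%. The genes were chosen with these libraries known, so nothing is read from these counts. The median log2 fold change of the 6 genes was -0.24 in hypertension (2 higher and 4 lower), -0.51 in atherosclerosis (3 and 3) and -0.24 after MI (2 and 4), beside medians of -0.01, 0.01 and 0.0002 over all genes. Without control 4 it was 0.19 in hypertension, -0.11 in atherosclerosis and 0.18 after MI.

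**Figure D3:**
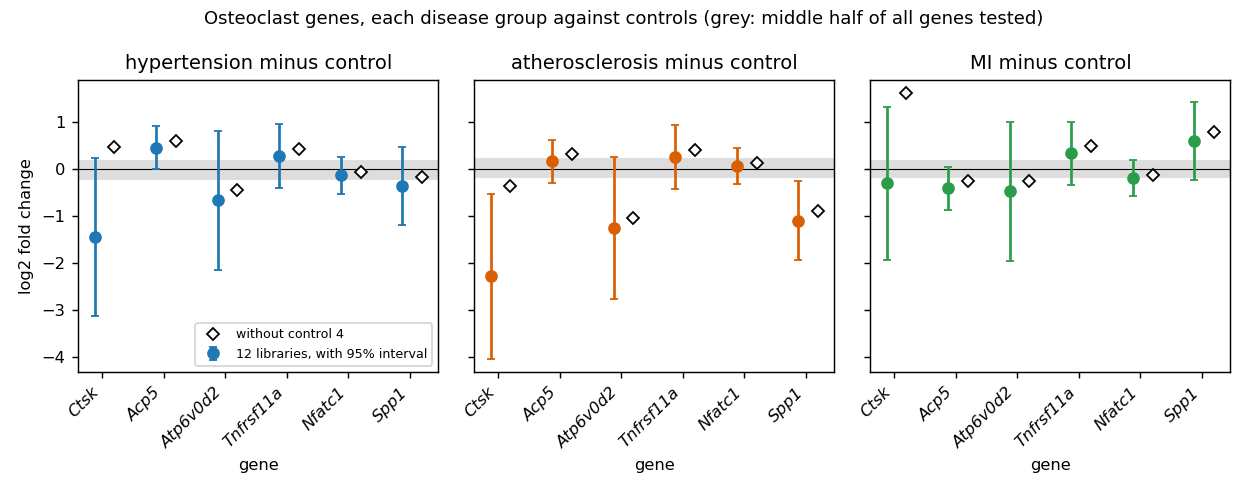
Log2 fold change of the 6 osteoclast genes in each disease group against controls, as filled points with 95% intervals for all 12 libraries and open diamonds without control 4, with the middle 50% of 15999 genes in grey. Without control 4, Ctsk moves from -1.44 to 0.47 in hypertension and from -0.29 to 1.62 after MI, while Acp5, Tnfrsf11a, Nfatc1 and Spp1 shift little.

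The 6 genes tested differed in how far they varied between mice of a group. The SD within groups, in log2 CPM, was 1.15 for Ctsk, 1.10 for Atp6v0d2 and 0.58 for Spp1, above 98.2%, 97.8% and 82.5% of all genes tested. It was 0.38 for Tnfrsf11a, 0.29 for Acp5 and 0.22 for Nfatc1, beside a median of 0.32 over all genes, which left Tnfrsf11a above 60.7% of genes, Acp5 above 43.4% and Nfatc1 above 27.6%. In Ctsk and Atp6v0d2 a single SD within a group was a factor of 2.23 and 2.14, in Acp5 a factor of 1.22.

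Several of the genes were highest in the same mice. Ctsk, Atp6v0d2 and Ocstamp had their highest library of each of the 4 groups in common, namely control 4, hypertension 2, atherosclerosis 4 and MI 2. Spp1, Tnfrsf11a and Oscar shared 3 of these 4 libraries, Nfatc1 2 and Acp5 and Dcstamp 1. Calcr had its only counts in 2 of them, control 4 and MI 2. For Ocstamp, atherosclerosis 4 was highest with 2 counts against 0 and 0. How often other genes share these libraries was not computed, so nothing is read from the shared libraries. In hypertension 2, Ctsk was 1.07, Atp6v0d2 1.51 and Spp1 1.13 above the mean of the other 2 hypertension libraries on the log2 scale, where 95% of genes were at or below 0.80.

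**Figure D4:**
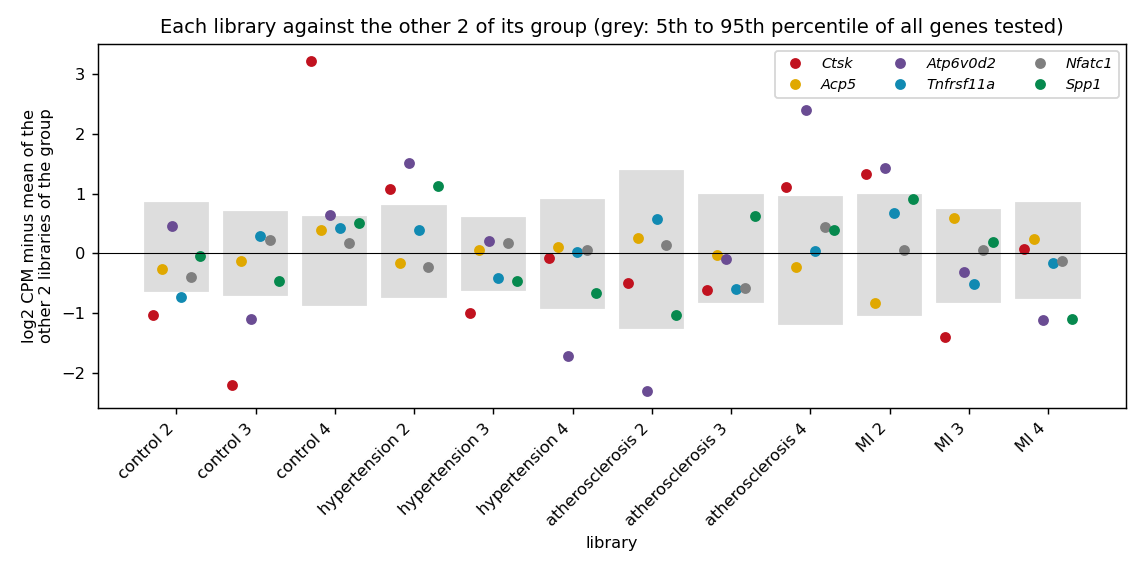
Difference in log2 CPM between each library and the mean of the other 2 libraries of its group for the 6 osteoclast genes tested, with grey boxes from the 5th to the 95th percentile of 15999 genes. Ctsk in control 4 is at 3.22 and leaves its grey box by the widest margin, and Ctsk and Atp6v0d2 lie above the boxes of hypertension 2, atherosclerosis 4 and MI 2.

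Across the 12 libraries, log2 CPM of Ctsk correlated with Spp1 at Pearson's r = 0.71 (Spearman's rho 0.76, r = 0.76 without control 4) and with Atp6v0d2 at r = 0.63 (rho 0.64, r = 0.58 without control 4). Atp6v0d2 and Spp1 correlated at r = 0.76 (rho 0.68, r = 0.75 without control 4). Acp5 had a negative r to each, at -0.40 to Ctsk, -0.40 to Atp6v0d2 and -0.62 to Spp1. Within groups, as deviations from the group means, the r to Ctsk was only -0.12 for Acp5. By the same measure it was 0.49 for Spp1 and 0.51 for Atp6v0d2. Nfatc1 correlated with Ctsk at r = -0.06 and Tnfrsf11a at r = 0.34. Of the 15 pairs 7 were positive and 8 negative, with a median r of -0.05. These are descriptions over 12 libraries that share groups, depth and mixture of cells, and no p is given.

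**Figure D5:**
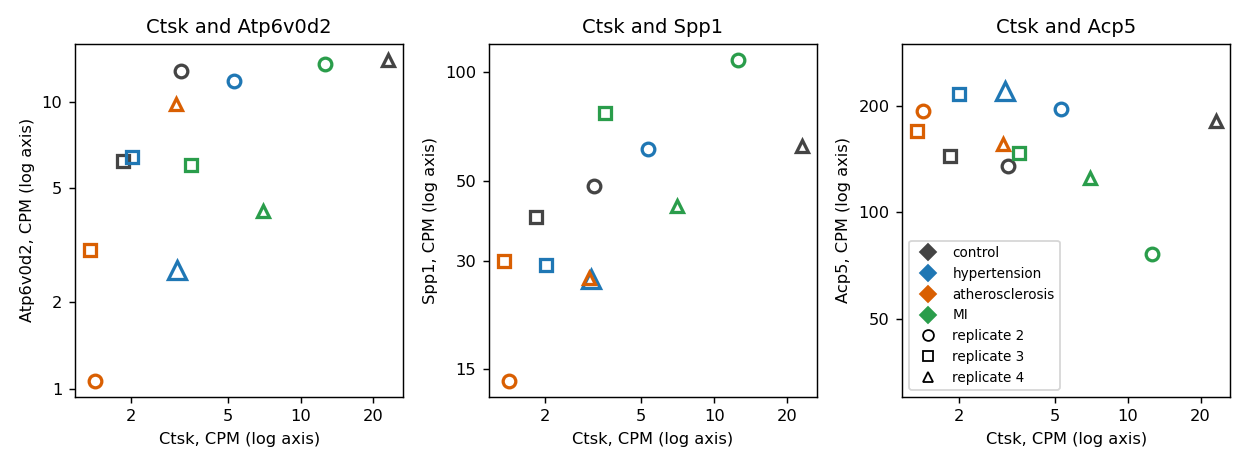
Levels of Atp6v0d2, Spp1 and Acp5 against Ctsk in the 12 libraries, in CPM on log axes, with colours for groups and symbols for replicate numbers. Atp6v0d2 and Spp1 tend to rise with Ctsk, but MI 4 ranks 3 of 12 from the highest for Ctsk and 9 for Atp6v0d2. Acp5 is lowest in MI 2, where Ctsk is second highest. Hypertension 4 is drawn larger only to keep an overlapping point visible.

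Markers of other marrow cells moved with some of these libraries. All 8 stromal markers and 11 of 14 endothelial markers were highest in control 4 among the controls. So were 7 of 14 macrophage, 4 of 12 osteoblast, 4 of 12 erythroid, 1 of 8 monocyte and 1 of 6 B cell markers. The number was 0 of 12 for neutrophil and 0 of 6 for megakaryocyte markers. The share over all genes tested was not computed, so nothing is read from these counts. The stromal sum was 219.1, 141.5 and 302.5 CPM in controls 2, 3 and 4. The stromal sum ranged from 100.6 to 337.0 CPM in hypertension, from 123.4 to 234.1 CPM in atherosclerosis and from 153.5 to 239.5 CPM after MI. The stromal, osteoblast and monocyte sums each shared 3 of the 4 highest libraries with Ctsk. The B cell sum shared 0 and the sums of the other cell lists 2 each. No stromal or endothelial marker was at 0 in all libraries. The osteoblast sum was 117.1 to 139.9 CPM in controls and 119.4 to 222.3 CPM in the disease groups. Among its genes, Ibsp was at 59.2 to 171.8 CPM. Col1a1 was at 34.2 CPM in atherosclerosis 4, against 0.868 to 4.35 CPM in the 11 other libraries. Ctsk and Atp6v0d2 were highest of their group in atherosclerosis 4. The same library had the lowest Ibsp (59.2 CPM) and Dmp1 (0.0509 CPM) of the series and the highest Bglap (1.07 CPM). Of the osteocyte markers, Dmp1 was at 0.0509 to 1.74 CPM, and Sost and Mepe were at 0 in 11 and 10 of the 12 libraries. The part of these cells in the levels of Ctsk, Atp6v0d2 and Spp1 was not tested.

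In atherosclerosis, 8 of 14 macrophage markers lay above all controls in all 3 libraries, and 0 lay below, beside 5.04% and 4.46% of all genes tested. Their sum was 751.6 to 795.2 CPM in controls, 723.2 to 1058 CPM in hypertension, 1005 to 1204 CPM in atherosclerosis and 679.6 to 833.1 CPM after MI, and none of the 14 was at 0 throughout. Cd5l, a gene of tissue macrophages, was at 8.11 to 15.5 CPM in controls and 43.2 to 71.4 CPM in atherosclerosis. C1qa was at 27.3 to 36.0 CPM in controls and 57.6 to 62.6 CPM in atherosclerosis. Cd68 and Adgre1 overlapped between these groups. Cd68 was at 240.6 to 326.0 CPM in controls and 249.2 to 305.0 CPM in atherosclerosis, and Adgre1 at 43.7 to 76.9 and 44.7 to 103.1 CPM. Acp5 and Spp1, which macrophages also use, went different ways in that group, with Acp5 within or near the controls and Spp1 below them. The monocyte sum was 1474 to 2093 CPM in controls, 1317 to 1483 CPM in hypertension, 1380 to 1669 CPM in atherosclerosis and 1756 to 2688 CPM after MI, highest in MI 2. In hypertension, 7 of 12 neutrophil markers lay below all controls, beside 7.81% of all genes tested. Their sums were 36550 to 53570 CPM against 57710 to 80040 CPM in controls. After MI 4 of 6 B cell markers lay below all controls, beside 4.59% of all genes tested. Their sums were 175.8 to 363.3 CPM against 388.0 to 553.7 CPM in controls. The part of macrophages, monocytes, neutrophils and B cells in the levels of Acp5, Spp1 and the pathway genes was not tested.

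A list of 52 other genes of the osteoclast pathway was followed beside the 10, and 49 of them passed the count filter. The quasi-likelihood test called none of the 49 in any comparison. At an unadjusted p under 0.05 there was 1 of the 49 in hypertension, 2 in atherosclerosis and 0 after MI, beside 3.71%, 5.97% and 2.80% of all genes tested. The likelihood-ratio test and DESeq2 called 1 gene in atherosclerosis, Tnfaip3, and 0 in the other comparisons. In hypertension 15 of the 49 were higher and 34 lower (median log2 fold change -0.12). In atherosclerosis 23 were higher and 26 lower (median -0.0095), and after MI 19 were higher and 30 lower (median -0.07). Over all genes tested the medians were -0.01, 0.01 and 0.0002 in the same order. Every comparison used the same controls, and nothing is read from these directions.

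The listed genes covered ligands, receptors, transcription factors, inhibitors and genes of acid secretion, and their levels in CPM are not compared between genes. Car2, the carbonic anhydrase that supplies protons in osteoclasts and is abundant in red cells, was at 2839 to 21730 CPM. Csf1, the gene of the CSF1 ligand, was at 6.39 to 21.2 CPM. Tnfsf11, the gene of RANKL, was at 0.487 to 1.22 CPM, and Tnfrsf11b, the gene of its decoy receptor osteoprotegerin, was at a median of 0 CPM and did not pass the filter. Siglec15, an osteoclast receptor, and Cthrc1, which osteoclasts secrete, did not pass it either. The CSF1 receptor gene Csf1r was at 70.4 to 169.5 CPM, the PU.1 gene Spi1 at 328.7 to 543.3 CPM and Fos at 313.7 to 570.5 CPM, while Mitf was at 2.701 to 6.003 CPM. Of 16 genes of acid secretion, resorption or attachment, 12 were lower in hypertension, 11 in atherosclerosis and 11 after MI, and 0 were called. The share of all genes tested that were lower was not computed, and every comparison used the same controls. Nothing is therefore read from these directions.

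Among the other pathway genes tested, the smallest p value in atherosclerosis was that of Tnfaip3, which ranked 64 by p over all genes tested. The gene, which encodes the NF-kappaB inhibitor A20, was at 23.3, 26.7 and 31.1 CPM in controls 2, 3 and 4 and at 36.9, 50.8 and 62.8 CPM in atherosclerosis, above all controls in 3 of 3 libraries. Its log2 fold change was 0.89 (SE 0.21), and it did not pass with edgeR's quasi-likelihood test (adjusted p = 0.205). It passed with the likelihood-ratio test (adjusted p = 0.0298), with DESeq2 (0.0292), without the count filter (0.00357) and without atherosclerosis 2 (0.0409), and over the other alternatives its adjusted p was 0.0675 to 0.795.

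Slc9b2, like Ctsk, was highest in control 4. It was at 0.336, 0.433 and 2.94 CPM in controls 2, 3 and 4, that is 6, 8 and 76 counts, at 1.18, 0.437 and 0.800 CPM in hypertension, at 0.0888, 0.645 and 0.509 CPM in atherosclerosis and at 1.16, 0.634 and 1.62 CPM after MI. All 11 other libraries were at 1.62 CPM or less. Its log2 fold change in atherosclerosis was -1.66 (SE 0.82, adjusted p = 0.852, quasi-likelihood), and without control 4 it was 0.07.

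In hypertension the smallest p values among the pathway genes tested were those of Btk, Tyrobp and Sphk1. The log2 fold change was -0.29 (SE 0.13) for the kinase gene Btk and -0.65 (SE 0.31) for the adaptor gene Tyrobp. For Sphk1, which makes a lipid signal to osteoblasts, it was 0.34 (SE 0.18). Each had an adjusted p of 0.951 by the quasi-likelihood test. After MI the smallest p values among the pathway genes were those of Slc4a2, an anion exchanger of the acid-secreting osteoclast, of Tnfaip3 and of Nfkb2. Their log2 fold changes were -0.37 (SE 0.20), -0.33 (SE 0.21) and -0.34 (SE 0.22), each with an adjusted p of 1 by the same test. None passed.

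The genes most like the mean of the 6 tested osteoclast genes over the 12 libraries, among 15993 others, were Poc5 (Pearson's r = 0.90), Dock6 (0.89), Tmem209 (0.88), Tmem248 (0.87), Otud3 (0.87), Particl (0.87), Insig1 (0.87) and 4930453N24Rik (0.86). Without control 4 their r was 0.80 to 0.91, and within groups, as deviations from the group means, it was 0.83 to 0.91. None of the 8 is on the osteoclast lists. Of the listed pathway genes the closest was Tcirg1, a subunit of the proton pump, at r = 0.79 and rank 59, followed by Slc9b2 at r = 0.77 and rank 80. This order rested on control 4. Without it Tcirg1 was at r = 0.69 and rank 541 and Slc9b2 at r = 0.67 and rank 715. The closest listed gene was then Trem2, at r = 0.85 and rank 31, against r = 0.69 and rank 314 with all 12 libraries. The mean was taken over centred log2 CPM that were not scaled per gene. It therefore follows Ctsk and Atp6v0d2 (SD within groups 1.15 and 1.10) more than Acp5 and Nfatc1 (0.29 and 0.22). Of the 15 pairs of the 6 genes, 8 had a negative r, so the mean is no pattern common to all 6. No p is given.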

How the data were processed

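The authors sorted marrow cells by flow cytometry, made directional libraries of polyadenylated RNA, aligned the reads to GRCm38.p6 with STAR 2.7.3a and deposited raw counts per Ensembl gene, without normalization; which of STAR's strand columns was taken is not stated. Counts are whole numbers for 55421 genes in 12 columns, matched to mice by group and number in the labels. Symbols and exon lengths came from GENCODE M21, an earlier release than the authors used, and 55240 genes had an entry.

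In edgeR 4.0.16 (R 4.3.3), genes were filtered with filterByExpr, scaled by TMM and fitted with a coefficient per group over all 12 libraries (8 residual degrees of freedom). Disease groups were compared with controls by glmQLFTest, two-sided, with Benjamini-Hochberg adjustment over 15999 genes and a call at an adjusted p under 0.05. CPM are counts per 1000000 of the TMM-scaled library total, and CPM of the 4 genes below the filter, pooled over a group, are unscaled. Deviations and correlations used log2 CPM with a prior count of 1. The steps were tested on simulated data. Replicates are separate mice, by the study's methods. Poisson intervals are exact at 95%, a count of 0 allows up to 3 counts, and both cover counting error only. Depth limits genes under about 10 counts per library.

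The members and lists were chosen with earlier results of these data known. Named genes were all members, pathway genes that passed or had the 3 smallest p in a comparison, and the 8 genes of highest r with the mean of the tested members; 1 gene that this rule names is not reported here. Alternatives were the likelihood-ratio test, DESeq2 1.42.0, RLE factors, no filter, at least 10 counts in every library, the replicate block, only the 2 groups compared, immunoglobulin and hemoglobin genes left out, each library left out in turn and, added after seeing the data, control 4 and atherosclerosis 2 left out together. Descriptions used Python 3.11.15 with pandas 2.3.3 and scipy 1.17.1. RefSeq promoters were scanned for letters. Sequenced reads were not analysed here.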

Additional observations from a re-analysis of the deposited data

How the results depend on the processing

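The number of genes called in atherosclerosis, 23, moved to 81 with the likelihood-ratio test, 81 with DESeq2, 432 without a filter, 4 with only the 2 groups compared and 2 to 34 when a library was left out (3, 2 and 11 without control 2, 3 and 4, and 6 without atherosclerosis 3). In hypertension it moved from 0 to 170 without a filter, and after MI from 0 to 1 with the likelihood-ratio test, DESeq2 or only the 2 groups compared and to 130 without a filter. The other pathway genes called in atherosclerosis moved from 0 to 1 with the likelihood-ratio test and DESeq2 (Tnfaip3), to 3 without a filter and to 0 to 1 when a library was left out. The cause was not tested.

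The median of the 6 osteoclast genes depended on control 4: leaving out a library gave -0.45 to 0.186 in hypertension, -0.637 to -0.113 in atherosclerosis and -0.331 to 0.184 after MI, and without control 4 and atherosclerosis 2 together it was 0.187, -0.031 and 0.184. Slc9b2 in atherosclerosis was -2.118 to 0.073 when a library was left out, turning sign without control 4 (0.073), and 0.585 without both. The summed level of the 10 genes in control 4 lay 0.438 (log2) above the mean of the other controls, and 0.365 to 0.476 under 4 other scalings, the lowest over the macrophage list. With the replicate number as a block, 7 genes were called in atherosclerosis, and 0 in the other comparisons. Mice of the same number did not deviate together (18 pairs, r -0.269 to 0.282), so the block is given here only. Of 270 values of the 6 genes under alternatives, 263 moved by less than the gene's own SD within groups. The 7 others were 6 of Ctsk and 1 of Atp6v0d2. That SD is wide for Ctsk (1.15), and several alternatives refit the same counts, so the 263 are no measure of robustness.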

Other observations

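Chosen after the values were seen, the genes most like Ctsk alone over the 12 libraries were Map2k5 (Pearson's r = 0.89), Gm7240 (0.86), Ism1 (0.84), Poc5 (0.83), Slc9b2 (0.83), Tmem248 (0.82), Dock6 (0.82) and Ptgs1 (0.82). Slc9b2 ranked 5 of 15998 genes with control 4 and 128 without it, where its r was 0.73. Tcirg1 ranked 20 (r = 0.76), Spp1 46 (0.71), Atp6v0d2 168 (0.63) and Acp5 14105 (-0.40). Without control 4 these ranks were 588, 74, 948 and 15575 in the same order. The points share libraries, and no p is given.

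Map2k5, with the highest r, ranged only from 19.5 to 27.1 CPM while Ctsk ranged from 1.35 to 23.05 CPM.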
